A study of Homo sapiens with 12 samples.

Results

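Serpins are protease inhibitors that carry an exposed loop read by a protease as a substrate; on cleavage the inhibitor changes shape and traps the enzyme. Clade B serpins lack a classical secretion signal and act mainly inside cells, where in myeloid cells they guard the cytosol and nucleus against the cell's own granule proteases. Clade A holds the secreted plasma serpins. The 7 genes described here were chosen by name, with earlier results on these libraries known: 6 clade B members, SERPINB1, SERPINB2, SERPINB6, SERPINB8, SERPINB9 and SERPINB10, and 1 clade A member, SERPINA1. They are 7 of the 26259 genes of the count table and 7 of its 37 genes with a SERPIN name. All 7 had enough counts to be among the 14010 genes tested. Because the genes were selected on these same libraries, their levels and differences are given as a description, with no p-value.

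OCI-AML3 is an established cell line from a human acute myeloid leukaemia, and its RNA was sequenced in 12 libraries, 3 for each of 4 genotypes. The groups were parental cells (wt) and the clones CD33 KO, CD123 KO and CD33/CD123 KO, the last edited in both genes, all of them untreated cells kept in the same medium. CD33 is a lectin-like inhibitory receptor that binds sialic acid on myeloid cells. IL3RA is the gene of CD123, the subunit through which the interleukin-3 receptor binds its ligand. Each knockout was made by electroporating Cas9 protein bound to a guide RNA, enriched by magnetic and flow sorting, and grown from a single cell. Every genotype but wt is therefore 1 clone, no unedited clone is among the groups, and the genotype and the clone cannot be told apart. The labels speak of triplicates without saying whether these were separate cultures, so p-values measure the spread between libraries, which may be technical.

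Total counts ranged from 15583315 to 61827969 per library, and 3 counts were worth 0.0504 to 0.187 CPM (counts scaled to a common library size). Libraries of a group differed by 2.4 to 12.7 times the sampling noise in chi-square per gene, so none was taken as a library deposited more than once. RNA of the edited genes was still present. CD33 stood at 50.4 ± 1.56 (SD, n = 3) CPM in wt, 39.9 ± 1.4 in CD33 KO and 45.7 ± 4.47 in CD33/CD123 KO. IL3RA stood at 7.54 ± 1.49 in wt, 3.52 ± 0.604 in CD123 KO and 7.64 ± 1.56 in CD33/CD123 KO. It was also below wt in CD33 KO, where it was not edited, at 4.79 ± 0.81. A small edit need not lower RNA, so these levels do not test the labels. All 11 myeloid leukaemia markers stood above 1 CPM in each group. The 4 erythroid, 3 megakaryocyte and 4 epithelial markers summed to at most 0.214 CPM in any library, and the B cell and fibroblast markers to at most 1.7 and 0.812. Of the T and NK cell markers, CD3D, CD3E and CD2 were at 0, while NCAM1 stood at 177 to 356 CPM on average per genotype. The monocyte and macrophage markers summed to 235 to 253 CPM in wt, 475 to 488 in CD33 KO, 337 to 382 in CD123 KO and 521 to 561 in CD33/CD123 KO. Most of that sum was CD68, at 213, 477, 339 and 533 CPM on average in the same order. Of the 6 markers, 4 stood above 1 CPM in wt, 2 in CD33 KO, 4 in CD123 KO and 3 in CD33/CD123 KO. MRC1 was at 0 in all groups and FCGR3A was at 0 in CD33 KO and CD33/CD123 KO. The higher sums in the clones thus describe CD68 and not the list as a whole. The part of these marker differences in the levels below was not tested. In such bulk RNA, a change in the share of cells expressing a gene and in its RNA per cell cannot be told apart.

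The clade B members lie in a pair of clusters. In hg19, SERPINB1 (chr6:2832566-2842283), SERPINB9 (chr6:2887500-2903546) and SERPINB6 (chr6:2948393-2972399) lie in this order on the minus strand, with gaps of 45.2 and 44.8 kb. SERPINB2 (chr18:61554939-61571124), SERPINB10 (chr18:61582745-61602476) and SERPINB8 (chr18:61637263-61656608) lie on the plus strand, with gaps of 11.6 and 34.8 kb. SERPINA1 is on the minus strand of chromosome 14 (chr14:94843084-94857029). Summed exon lengths in the table were 2794 bases for SERPINB1, 4150 for SERPINB9, 3032 for SERPINB6, 2166 for SERPINB2, 1194 for SERPINB10, 3786 for SERPINB8 and 3687 for SERPINA1. SERPINB10's length is the shortest of the 7. Its model may hold coding exons alone, which was not checked.

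Promoter sequences are shown for 4 members because neighbours in a cluster differed in their levels across the genotypes (below) and the RefSeq table (GRCh38.p14, 250 bases before to 50 after the start site) lets their start regions be set side by side. It held 6 of the 7 members, all but SERPINB10. Capitals mark matches, on either strand, to 8 searched motifs: AP-1 (TGANTCA), CRE (TGACGTCA), C/EBP (TTGCNNAA), PU.1 (GAGGAAG), NF-kB (GGGNNTTCC), STAT (TTCNNNGAA), HOX-PBX (TGATTNAT) and the letters TATAAA of a TATA box, N being any base. The 4 windows are chr18:63887455-63887754 (plus strand) for SERPINB2, chr18:63969831-63970130 (plus) for SERPINB8, chr6:2841814-2842113 (minus) for SERPINB1 and chr6:2903260-2903559 (minus) for SERPINB9, each written 5′ to 3′ along its gene.
SERPINB2: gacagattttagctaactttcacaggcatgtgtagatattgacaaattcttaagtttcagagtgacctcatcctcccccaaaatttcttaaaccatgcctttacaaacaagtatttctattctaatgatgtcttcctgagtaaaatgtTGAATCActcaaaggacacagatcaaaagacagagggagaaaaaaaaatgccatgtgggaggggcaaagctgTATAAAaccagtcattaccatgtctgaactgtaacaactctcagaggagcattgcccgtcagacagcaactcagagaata
SERPINB8: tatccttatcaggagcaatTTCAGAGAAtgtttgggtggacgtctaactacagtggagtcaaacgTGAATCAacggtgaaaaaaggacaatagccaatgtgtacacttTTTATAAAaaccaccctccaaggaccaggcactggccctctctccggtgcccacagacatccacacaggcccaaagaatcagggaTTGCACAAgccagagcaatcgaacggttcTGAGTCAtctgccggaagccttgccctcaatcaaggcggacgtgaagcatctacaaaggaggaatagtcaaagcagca
SERPINB1: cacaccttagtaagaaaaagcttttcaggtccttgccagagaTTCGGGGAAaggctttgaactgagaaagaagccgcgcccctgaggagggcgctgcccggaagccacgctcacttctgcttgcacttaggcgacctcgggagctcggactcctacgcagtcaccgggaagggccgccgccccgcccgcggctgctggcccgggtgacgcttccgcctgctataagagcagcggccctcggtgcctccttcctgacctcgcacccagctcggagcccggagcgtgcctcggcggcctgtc
SERPINB9: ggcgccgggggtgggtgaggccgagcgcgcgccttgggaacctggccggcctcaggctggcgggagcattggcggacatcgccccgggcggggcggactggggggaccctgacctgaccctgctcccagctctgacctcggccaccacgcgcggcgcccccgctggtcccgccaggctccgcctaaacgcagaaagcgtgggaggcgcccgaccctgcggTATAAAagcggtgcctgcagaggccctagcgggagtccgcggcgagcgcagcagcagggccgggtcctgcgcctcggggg

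The SERPINB2 window had 39.0% GC and a single CG pair, against medians of 58.7% and 14 over the 35116 promoters of that table. It held an AP-1 match 102 bases before the start and a TATA match 30 bases before it. SERPINB8, at 48.7% GC with 9 CG pairs, held 2 AP-1 matches (185 and 28 bases before the start), a C/EBP match (57 bases), a STAT match (231 bases) and 2 TATA matches on opposite strands that overlap (142 and 140 bases). The chromosome 6 windows were GC-rich: SERPINB1 had 65.7% GC and 27 CG pairs, with a STAT match 208 bases before the start, and SERPINB9 had 75.7% GC and 35 CG pairs, with a TATA match 30 bases before the start. SERPINB6 has 4 windows of 47.7% to 76.7% GC, and SERPINA1 has 2 windows with no match. Over all promoters of the table, 7.71% hold the AP-1 motif, 10.5% C/EBP, 7.66% STAT, 11.5% TATA, 13.6% PU.1, 6.58% NF-kB, 2.82% HOX-PBX and 1.85% CRE. A match describes letters and is not evidence of a bound factor.

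SERPINB2, also called plasminogen activator inhibitor 2, inhibits urokinase and is an inducible gene of monocytes. It had the widest span of the 7, 14.4 times between the highest and lowest genotype mean. Libraries held 18.3, 16.2 and 16.1 CPM in wt, 238, 245 and 247 in CD33 KO, 55.5, 50.5 and 59.2 in CD123 KO, and 84.9, 90.3 and 83.2 in CD33/CD123 KO. All 9 knockout libraries lay above the 3 wt libraries, and no 2 genotypes overlapped. How many of all genes tested separate like this was not counted. Against wt, 63.1%, 59.5% and 58.6% of all genes tested passed adjusted p alone in CD33 KO, CD123 KO and CD33/CD123 KO. Nothing is therefore read from a lack of overlap, here or below. On the log2 scale the SERPINB2 level was higher than wt by 3.87 ± 0.06 (SE) in CD33 KO, 1.73 ± 0.06 in CD123 KO and 2.37 ± 0.06 in CD33/CD123 KO. The double knockout thus stood between the single knockouts, 0.64 ± 0.05 above CD123 KO and 1.5 ± 0.05 below CD33 KO, in log2.

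SERPINB10, or bomapin, is a nuclear serpin of haematopoietic and leukaemic cells. Its libraries held 95.4, 89.1 and 97.7 CPM in wt, 239, 236 and 241 in CD33 KO, 63.6, 64.1 and 60.8 in CD123 KO, and 125, 124 and 114 in CD33/CD123 KO. The single knockouts lay on opposite sides of wt, with the double knockout above wt and no overlap between any genotypes. The log2 differences from wt were 1.35 ± 0.04 in CD33 KO, -0.58 ± 0.04 in CD123 KO and 0.37 ± 0.04 in CD33/CD123 KO. Between the single knockouts the gap was 1.93 ± 0.04.

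SERPINB8, an inhibitor of the proprotein convertase furin, had the same order of the single knockouts around wt. It stood at 210, 192 and 206 CPM in wt, 298, 277 and 290 in CD33 KO, 127, 118 and 115 in CD123 KO, and 175, 172 and 160 in CD33/CD123 KO. Here the double knockout was below wt, and again no genotypes overlapped. The log2 differences from wt were 0.51 ± 0.05, -0.75 ± 0.05 and -0.26 ± 0.05 for CD33 KO, CD123 KO and CD33/CD123 KO.

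The 3 members of the chromosome 18 cluster thus shared the genotype with the highest level, CD33 KO, but not the one with the lowest, which was wt for SERPINB2 and CD123 KO for the other two. Per kilobase of annotated exon, the ratio of SERPINB2 to its neighbour SERPINB10 was 0.0988 ± 0.0075 in wt, 0.562 ± 0.0118 in CD33 KO, 0.484 ± 0.0508 in CD123 KO and 0.393 ± 0.0165 in CD33/CD123 KO. The ratio of SERPINB10 to SERPINB8 was 1.47 ± 0.0294 in wt, 1.66 ± 0.0637 in CD123 KO, 2.27 ± 0.0172 in CD33/CD123 KO and 2.63 ± 0.0762 in CD33 KO, with no overlap between genotypes.

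SERPINB1, the monocyte/neutrophil elastase inhibitor, blocks neutrophil elastase, cathepsin G and proteinase 3. Its libraries held 90.8, 84.0 and 86.3 CPM in wt, 169, 164 and 165 in CD33 KO, 137, 136 and 131 in CD123 KO, and 182, 198 and 179 in CD33/CD123 KO. Every knockout library lay above every wt library, and the double knockout held the highest values. The log2 differences from wt were 0.94 ± 0.04, 0.63 ± 0.04 and 1.1 ± 0.04 for CD33 KO, CD123 KO and CD33/CD123 KO.

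SERPINB6, which inhibits cathepsin G, had the narrowest span of the 7, at 1.75 times. It held 107, 104 and 95.7 CPM in wt, 174, 182 and 180 in CD33 KO, 125, 124 and 123 in CD123 KO, and 156, 157 and 159 in CD33/CD123 KO. All knockout libraries again lay above wt, but CD33 KO was the highest. The log2 differences from wt were 0.81 ± 0.04, 0.28 ± 0.04 and 0.63 ± 0.04 in the same order.

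SERPINB9 lies between these genes and inhibits granzyme B, the cytotoxic protease of T and NK cells. It was the only one of the 7 whose libraries lay below wt in all 3 clones. Libraries held 27.3, 28.6 and 28.7 CPM in wt, 20.6, 19.1 and 19.9 in CD33 KO, 19.5, 19.4 and 20.0 in CD123 KO, and 11.6, 9.83 and 8.61 in CD33/CD123 KO. The single knockouts overlapped each other and the double knockout was lowest, below all other libraries. Log2 differences from wt were -0.51 ± 0.07 in CD33 KO, -0.52 ± 0.07 in CD123 KO and -1.48 ± 0.08 in CD33/CD123 KO. The double knockout was 0.98 ± 0.08 below CD33 KO and 0.96 ± 0.08 below CD123 KO. The pseudogene SERPINB9P1, looked up after values were seen because it could share reads with its parent gene, was at 0.934, 0.794 and 1.13 CPM in wt and 0.0866, 0.0599 and 0.0578 in CD33/CD123 KO. LOC101927730, which overlaps SERPINB9 on the opposite strand, held at most 0.181 CPM.

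Per kilobase, the ratio of SERPINB1 to SERPINB9 was 4.6 ± 0.309 in wt, 10.2 ± 0.399 in CD123 KO, 12.4 ± 0.294 in CD33 KO and 28.0 ± 4.09 in CD33/CD123 KO. The ratio of SERPINB6 to SERPINB9 was 4.97 ± 0.391 in wt and 21.9 ± 3.43 in CD33/CD123 KO. By contrast, SERPINB1 to SERPINB6 moved only between 0.926 ± 0.0515 in wt and 1.28 ± 0.0726 in CD33/CD123 KO. The outer genes of the chromosome 6 cluster were thus higher in the clones while the gene between them was lower.

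SERPINA1 encodes alpha-1-antitrypsin, the secreted inhibitor of neutrophil elastase, made mainly by liver and also by myeloid cells. It was the one gene of the 7 that peaked in CD123 KO. Libraries held 25.3, 25.5 and 24.0 CPM in wt, 50.6, 46.4 and 45.4 in CD33 KO, 86.3, 94.3 and 79.6 in CD123 KO, and 43.4, 43.0 and 40.6 in CD33/CD123 KO. No genotypes overlapped, and the double knockout lay below each single knockout. The log2 differences from wt were 0.93 ± 0.06, 1.8 ± 0.06 and 0.77 ± 0.06. CD33/CD123 KO was 1.03 ± 0.06 below CD123 KO.

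**Figure D1:**
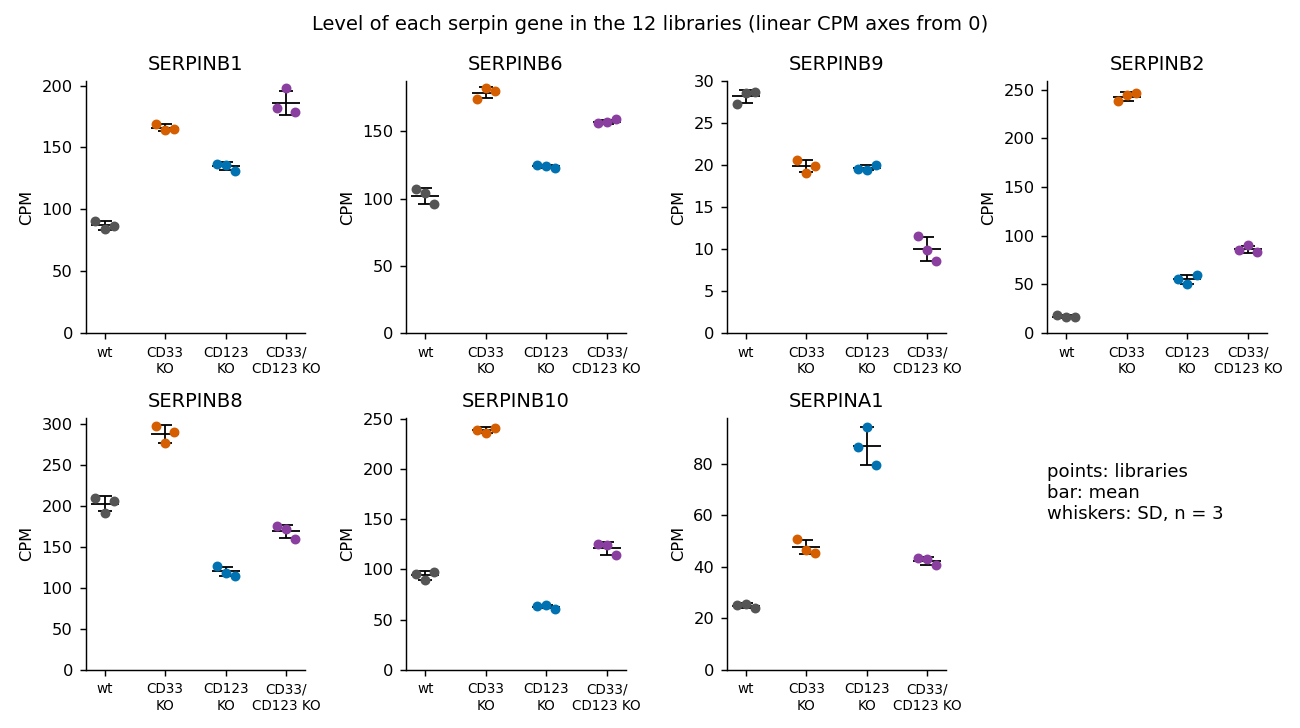
CPM on TMM-scaled library sizes of each of the 7 serpin genes (y axes from 0) in the 3 libraries of each genotype; points are libraries, bars means and whiskers SD. SERPINB2 runs from 16.1 CPM in wt to 247 in CD33 KO, SERPINB9 is lowest in the double knockout and SERPINA1 highest in CD123 KO.

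Calls followed the thresholds of the series design: an edgeR adjusted p under 0.05 and a log2 difference beyond 1.5 in either direction. Since the genes were chosen on these libraries, these counts describe them and nothing is read from them. Against wt, 1 of the 7 was called in CD33 KO (SERPINB2, higher) where 8.45% of all genes tested were called, 2 in CD123 KO (SERPINB2 and SERPINA1, higher) where 5.35% were, and 1 in CD33/CD123 KO (SERPINB2, higher) where 9.21% were. None of the 7 was called for CD33/CD123 KO against CD33 KO (3.18% of all genes) or against CD123 KO (7.64%), and 2 were called for CD33 KO against CD123 KO (SERPINB2 and SERPINB10, higher in CD33 KO; 7.45%). The median log2 difference of the 7 from wt was 0.93 in CD33 KO, 0.28 in CD123 KO and 0.63 in CD33/CD123 KO, where the medians of all genes tested were -0.0173, 0.0146 and -0.0144. The 3 comparisons with wt share the same wt libraries. A pair of values lay close to the fold threshold. SERPINB9 in CD33/CD123 KO against wt was called, at -1.62, without CD33/CD123 KO library 1 and, at -1.5 after rounding, without wt library 1. SERPINB2 in CD33/CD123 KO against CD33 KO ranged from -1.54 to -1.48 over the libraries left out, and was past the threshold without CD33 KO library 1 or 2, CD123 KO library 1 or 3, or CD33/CD123 KO library 2.

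**Figure D2:**
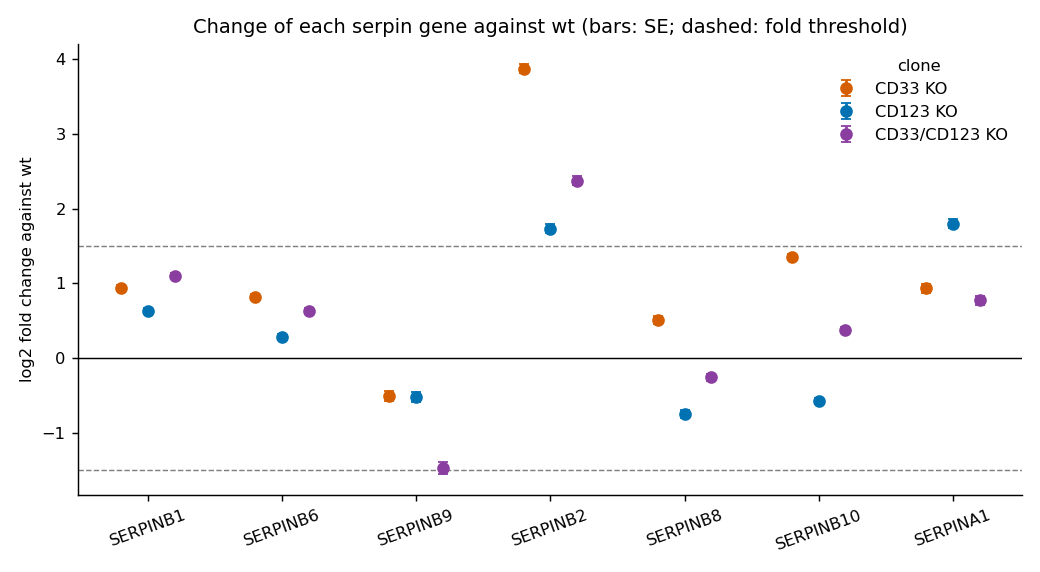
Log2 fold change against wt (y axis) of the 7 serpin genes (x axis) in CD33 KO, CD123 KO and CD33/CD123 KO; points are fitted values, bars SE and dashed lines the fold threshold of 1.5. SERPINB2 lies above the upper line in all 3 clones, SERPINA1 in CD123 KO alone, and SERPINB9 in the double knockout ends at -1.48, just inside the lower line.

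Levels of different genes were compared per kilobase of annotated exon. SERPINB10 was the highest of the 7 in every genotype, at 78.8 CPM per kb in wt, 200 in CD33 KO, 52.6 in CD123 KO and 101 in CD33/CD123 KO. If its short model leaves out untranslated exons, this value is raised relative to genes whose model includes them. SERPINB9 was lowest in the 3 clones, at 4.79, 4.74 and 2.41 CPM per kb in CD33 KO, CD123 KO and CD33/CD123 KO. In wt its 6.79 CPM per kb overlapped SERPINA1 at 6.76. SERPINB2 held 7.78 CPM per kb in wt, among the 3 lowest, and 112 in CD33 KO, second to SERPINB10. SERPINB1 and SERPINB6 overlapped in wt (31.1 and 33.7 CPM per kb) and in CD33 KO (59.4 and 58.9), whereas SERPINB1 was the higher in CD123 KO (48.2 against 40.8) and in CD33/CD123 KO (66.6 against 51.9).

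Summed over the 7 genes, the level was 218 ± 7.02 (SD, n = 3) CPM per kb in wt, 227 ± 4.22 in CD123 KO, 318 ± 11.2 in CD33/CD123 KO and 524 ± 4.49 in CD33 KO. The wt and CD123 KO sums lay close together only with SERPINB10 included, whose length is in doubt: without it, an alternative chosen after seeing the data, they were 140 ± 4.59 and 174 ± 3.01, with 324 ± 2.01 in CD33 KO and 217 ± 6.65 in CD33/CD123 KO. The makeup of the sums differed between the genotypes. SERPINB10 and SERPINB8 made up 36.1% and 24.5% of the wt sum and 23.2% and 14.0% of the CD123 KO sum. SERPINB2 and SERPINA1 made up 3.56% and 3.1% in wt and 11.2% and 10.4% in CD123 KO. In CD33 KO the share of SERPINB2 was 21.4%, and in CD33/CD123 KO it was 12.5%. Without SERPINB10 the share of SERPINB2 was 5.57% in wt, 34.6% in CD33 KO, 14.6% in CD123 KO and 18.3% in CD33/CD123 KO. SERPINB9 gave 3.11% of the sum in wt and 0.757% in CD33/CD123 KO.

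**Figure D3:**
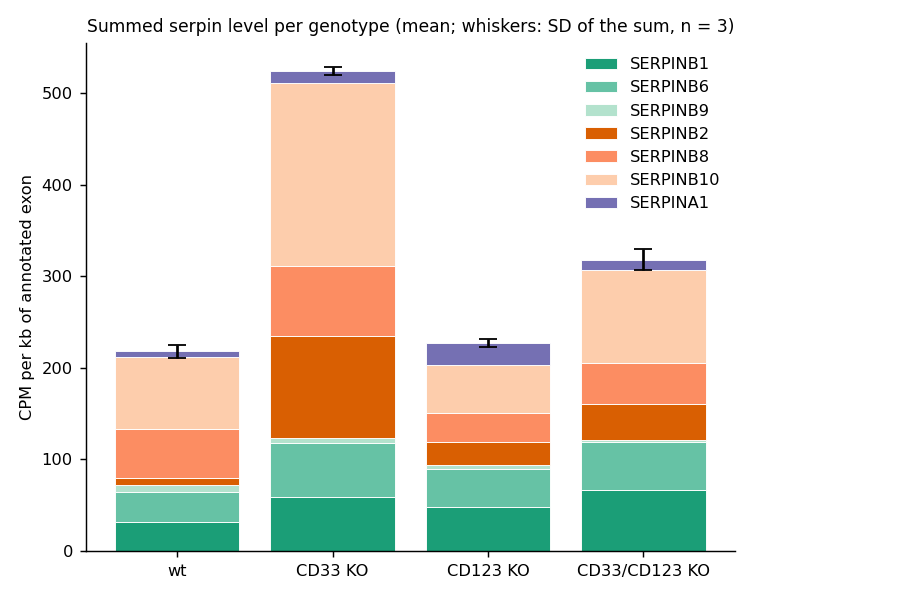
Stacked mean levels of the 7 serpin genes in CPM per kb of annotated exon (y axis from 0) for each genotype (x axis); whiskers are the SD of the sum over 3 libraries. The sum is 218 in wt and 227 in CD123 KO, with a larger SERPINB10 segment in wt, and 524 in CD33 KO, where the SERPINB2 segment is taller than in the other genotypes.

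Because a clone can differ in more than the edited gene, tested genes that are no serpins and lie within 1 Mb of the 7 were set beside them. Around the chromosome 6 cluster, 15 such genes had a median log2 difference from wt of 0.28 in CD33 KO, 0.19 in CD123 KO and 0.54 in CD33/CD123 KO. All 608 tested genes of chromosome 6 had medians of 0.58, 0.37 and 0.55, above the all-gene medians near 0, and SERPINB1 and SERPINB6 share that direction while SERPINB9 does not. The part of this chromosome-wide difference in their levels was not tested. Of the 15, 1 was called: PXDC1 fell in CD33/CD123 KO, from 3.16 ± 0.765 to 0.337 ± 0.196 CPM (log2 -3.25 ± 0.33 (SE), edgeR adjusted p = 2.9e-09). Around the chromosome 18 cluster only 4 genes were tested (PHLPP1, BCL2, KDSR and VPS4B), all on the side of SERPINB2, and none was called. Their medians were 0.22, -0.14 and 0.41 in CD33 KO, CD123 KO and CD33/CD123 KO, and the 188 tested genes of that chromosome had medians of -0.01, -0.04 and -0.02. In the same order of clones, SERPINB2 differed from wt by 3.87, 1.73 and 2.37 in log2. SERPINB10 differed by 1.35, -0.58 and 0.37, and SERPINB8 by 0.51, -0.75 and -0.26. Over the clones the 4 genes ranged from -0.35 to 0.59. The part of any regional difference in the serpin levels was not tested.

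Near SERPINA1, 9 genes had median differences of 0.14, 0.07 and -0.1. ASB2, which encodes a substrate-recognition subunit of a ubiquitin ligase of myeloid cells, rose from 0.651 ± 0.231 CPM in wt to 7.24 ± 0.238 in CD33 KO (log2 3.5, edgeR adjusted p = 8.71e-16). It reached 20.8 ± 1.0 in CD123 KO (log2 5.03, edgeR adjusted p = 5.72e-19), and its 1.11 ± 0.291 CPM in CD33/CD123 KO was not called. It thus shared with SERPINA1 the genotypes of the highest level, CD123 KO, and the next, CD33 KO. CLMN, the other called gene there, fell in CD33 KO from 5.69 ± 0.963 to 1.38 ± 0.0826 CPM (log2 -2.01, edgeR adjusted p = 5.75e-11).

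**Figure D4:**
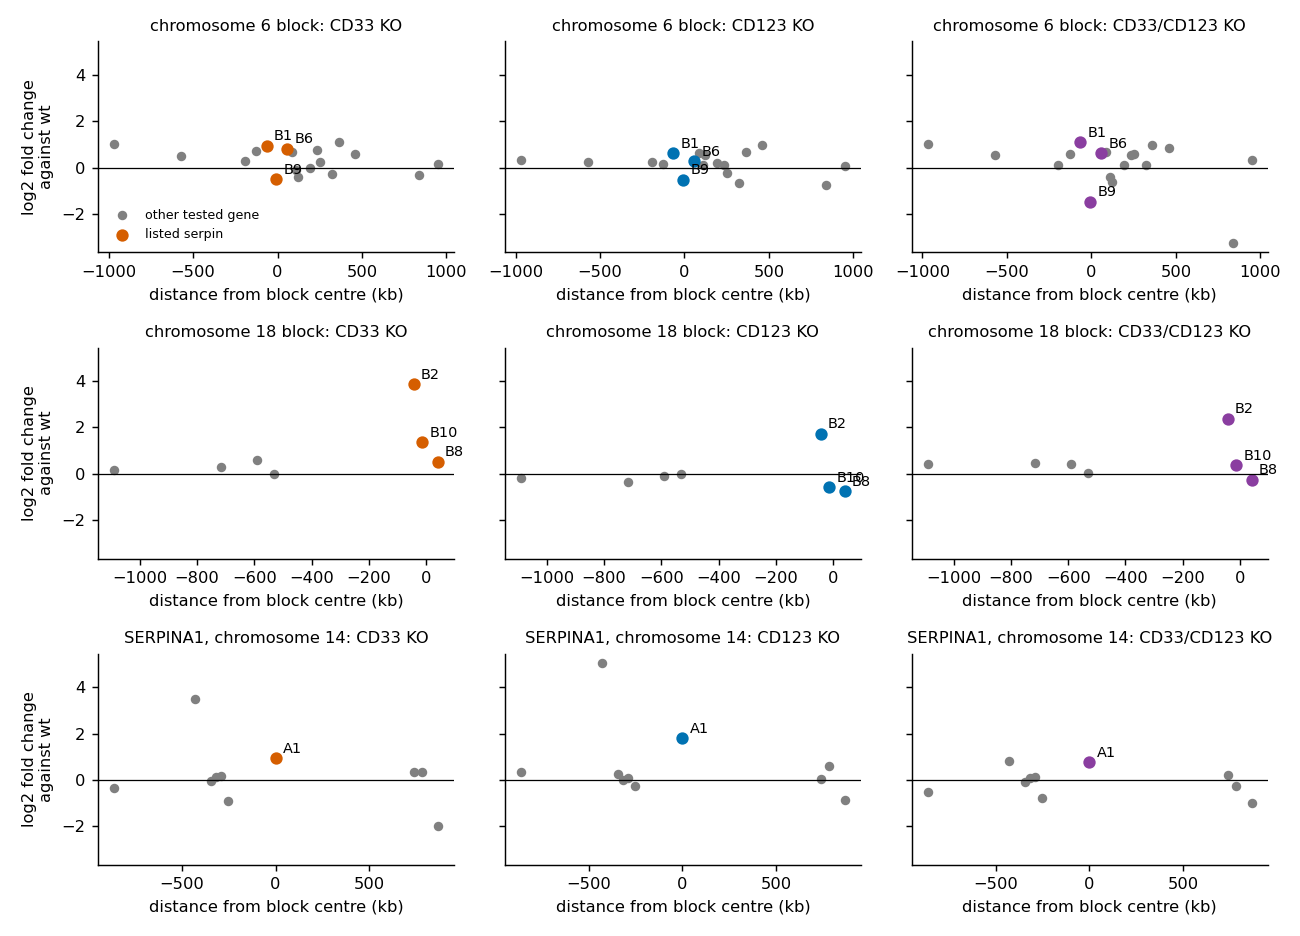
Log2 fold change against wt (y axis) of tested genes by distance in kb from the centre of each serpin block (x axis); coloured points are the listed serpins and grey points other tested genes. In the chromosome 6 block SERPINB9 lies below 0 between SERPINB1 and SERPINB6 above 0, and near SERPINA1 the grey point at 5.03 in CD123 KO is ASB2.

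The rest of the serpin family was mostly silent. Of 31 further serpin genes listed, 30 were in the table, 15 lacked counts altogether and 9 were tested. The remaining clade B genes (SERPINB3, SERPINB4, SERPINB5, SERPINB7, SERPINB11, SERPINB12 and SERPINB13), several of them epithelial serpins, did not reach the tested set. Of the 9, 1 rose and 2 fell in CD33 KO, 0 rose and 2 fell in CD123 KO, and 1 rose and 2 fell in CD33/CD123 KO, with medians of -0.73, 0.28 and -0.61. Over all 14010 genes tested, the calls behind the shares of 8.45%, 5.35% and 9.21% were 274 higher and 910 lower in CD33 KO, 367 and 383 in CD123 KO, and 260 and 1031 in CD33/CD123 KO. Lower calls thus outnumbered higher ones over all genes too, by far in CD33 KO and CD33/CD123 KO. Nothing particular to a list is read from these counts. The lists were also chosen with earlier results known, and most genes are named by smallest adjusted p. The adjusted p-values printed for them are therefore descriptive. AGT, angiotensinogen, a serpin that inhibits no protease, rose from 89.4 ± 2.77 CPM in wt to 258 ± 7.09 in CD33 KO (log2 1.53 ± 0.05, edgeR adjusted p = 7.72e-19). In CD33/CD123 KO it reached 322 ± 16.7 (log2 1.85 ± 0.05, edgeR adjusted p = 2.42e-20). In CD123 KO it was also above wt without overlap, at 141 ± 10.7 CPM (log2 0.66), under the fold threshold. Its CD33 KO value was under the fold threshold with upper-quartile scaling (1.48) and with library size alone (1.41). SERPINE2, a cell-surface inhibitor of thrombin and urokinase, fell in CD123 KO from 3.1 ± 0.542 to 0.896 ± 0.0724 CPM (log2 -1.75, edgeR adjusted p = 3.6e-07) and in CD33/CD123 KO to 0.997 ± 0.542 (log2 -1.59, edgeR adjusted p = 6.63e-06). The latter call was lost without wt library 3 (-1.5 after rounding) or CD33/CD123 KO library 2 (-1.31). SERPING1, the C1 inhibitor, was at 0.527 ± 0.0871 CPM in wt and had no counts in CD33 KO, where it was at least 27.6-fold lower, or in CD33/CD123 KO, where it was at least 10.6-fold lower; such bounds set the group's total at 3 counts. In CD123 KO it fell to 0.154 ± 0.0522 CPM (log2 -1.85, edgeR adjusted p = 0.00193).

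The proteases that these serpins are known to inhibit, or that sit beside such targets in granules, were counted next. Of 31 listed, 20 were tested: 2 rose and 4 fell in CD33 KO, 2 rose and 2 fell in CD123 KO, and 0 rose and 4 fell in CD33/CD123 KO, with median log2 differences of -0.14, 0.02 and 0.07, beside the 8.45%, 5.35% and 9.21% called over all genes. The granule targets of SERPINB1, SERPINB6 and SERPINA1 were abundant and none was called. CTSG, cathepsin G, stood at 3840 ± 89.6 CPM in wt, 5210 ± 39.7 in CD33 KO, 3910 ± 249 in CD123 KO and 4270 ± 108 in CD33/CD123 KO. ELANE, neutrophil elastase, stood at 628 ± 30.7, 720 ± 15.3, 669 ± 48.6 and 912 ± 14.1 CPM in the same order. PRTN3, proteinase 3, stood at 654 ± 35.8 in wt and at 1030 ± 28.9, 1130 ± 94.7 and 1100 ± 30.8 in the clones. SERPINB1 and PRTN3 were thus both higher in each clone than in wt, by 0.63 to 1.1 and by 0.66 to 0.79 in log2.

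PLAU, the urokinase that SERPINB2 inhibits, rose from 5.33 ± 0.667 CPM in wt to 17.1 ± 0.837 in CD33 KO (log2 1.71 ± 0.1, edgeR adjusted p = 5.3e-14) and 19.3 ± 1.5 in CD123 KO (log2 1.88 ± 0.1, edgeR adjusted p = 2.07e-14). Its 12.7 ± 1.18 CPM in CD33/CD123 KO, a log2 difference of 1.29, was under the fold threshold. The inhibitor and its target were thus both at their lowest in wt. SERPINB2 peaked in CD33 KO, whereas the mean of PLAU was highest in CD123 KO. The single knockouts hardly differed in PLAU, with CD33 KO against CD123 KO at log2 -0.17 ± 0.09 (SE, edgeR adjusted p = 0.0829). PLAUR, the urokinase receptor, stood at 40.0 ± 1.88 CPM in wt, 52.5 ± 1.78 in CD33 KO, 53.7 ± 3.96 in CD123 KO and 29.6 ± 3.02 in CD33/CD123 KO, and was not called. It was 1 of 4 tested genes of a list of urokinase receptor, plasminogen and binding partner genes, which leaves out PLAU itself, and none of the 4 was called in any clone. FURIN, the target of SERPINB8, was at 98.8 ± 2.49 CPM in wt, 75.7 ± 2.69 in CD33 KO, 88.3 ± 3.02 in CD123 KO and 129 ± 3.6 in CD33/CD123 KO, with no call. Its order of genotypes, lowest in CD33 KO and highest in the double knockout, was neither that of SERPINB8 nor its reverse.

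GZMB, granzyme B, the target of SERPINB9, was near the detection floor. It rose from 0.258 ± 0.023 CPM in wt to 0.991 ± 0.16 in CD33 KO (log2 1.96 ± 0.35, edgeR adjusted p = 2.35e-05) and to 0.78 ± 0.29 in CD123 KO (log2 1.59 ± 0.37, edgeR adjusted p = 0.000655). In CD33/CD123 KO it was also above wt without overlap, at 0.665 ± 0.19 CPM (log2 1.37), under the fold threshold. The CD123 KO call was lost with limma-voom (1.47) and without CD123 KO library 1 (1.41) or library 3 (1.43). Other proteases on the list fell. The convertase PCSK6 went from 2.65 ± 0.401 CPM in wt to 0.176 ± 0.149 in CD33 KO (log2 -4.08, edgeR adjusted p = 1.47e-09), with falls of 2.0 in CD123 KO and 1.73 in CD33/CD123 KO, the last lost without CD33/CD123 KO library 3 (-1.49). The cathepsin CTSV fell by 1.66 in CD33 KO and by 1.77 in CD33/CD123 KO, and its fall of 1.4 in CD123 KO was under the fold threshold. KLK1 fell by 3.64 in CD33/CD123 KO, with falls of 1.21 in CD33 KO and 0.63 in CD123 KO under the fold threshold. The granule protease PRSS57 fell by 4.28 in CD33 KO and had no counts in CD33/CD123 KO, at least 11.2-fold lower than in wt. GZMA was at 0.267 ± 0.151 CPM in wt, with 2 counts in all of CD33 KO (24.0 times higher in wt, 95% counting interval 6.13 to 206) and none in CD123 KO (at least 11.6-fold lower). In CD33/CD123 KO it went the other way, to 0.834 ± 0.287 CPM without overlap with wt (log2 1.44, edgeR adjusted p = 0.00834), under the fold threshold. Bounds and intervals of this kind reflect counting error alone.

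Inhibitors of other families were taken from a further list. Of 28 listed, 15 were tested: 1 rose and 4 fell in CD33 KO, 1 rose and 2 fell in CD123 KO, and 1 rose and 4 fell in CD33/CD123 KO, with medians of -0.2, -0.27 and -0.33, again beside 8.45%, 5.35% and 9.21% of all genes, mostly lower in CD33 KO and CD33/CD123 KO. SLPI, a secreted inhibitor of elastase and cathepsin G, was the gene that rose in each clone. It went from 1.72 ± 0.0753 CPM in wt to 31.7 ± 1.57 in CD33 KO (log2 4.22 ± 0.1, edgeR adjusted p = 5.68e-22), 8.72 ± 0.976 in CD123 KO (log2 2.36 ± 0.11, edgeR adjusted p = 1.52e-15) and 21.9 ± 0.776 in CD33/CD123 KO (log2 3.68 ± 0.11, edgeR adjusted p = 2.95e-20). This is the order of genotypes of SERPINB2, with CD33 KO first, the double knockout next, then CD123 KO and wt. TIMP3, a metalloprotease inhibitor of the matrix, fell in CD33 KO from 536 ± 18.8 to 89.7 ± 2.77 CPM (log2 -2.58 ± 0.05, edgeR adjusted p = 9.93e-22). Its levels of 192 ± 17.6 in CD123 KO (log2 -1.48) and 216 ± 7.61 in CD33/CD123 KO (log2 -1.31) were also below wt, short of the fold threshold. CST7, cystatin F, an inhibitor of lysosomal cathepsins, fell from 16.5 ± 0.444 to 3.38 ± 0.227 CPM in CD33 KO (log2 -2.29, edgeR adjusted p = 1.34e-18) and to 4.69 ± 0.149 in CD33/CD123 KO (log2 -1.81, edgeR adjusted p = 1.49e-15). Its level in CD123 KO went the other way, to 44.8 ± 2.15 CPM without overlap with wt (log2 1.45), just under the fold threshold. SPOCK1 fell by 2.71, 1.59 and 3.16 in CD33 KO, CD123 KO and CD33/CD123 KO, the CD123 KO call being lost without CD123 KO library 3 (-1.49). SPINT1 fell by 2.55 in CD123 KO and 2.78 in CD33/CD123 KO, and its fall of 1.46 in CD33 KO was under the fold threshold.

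**Figure D5:**
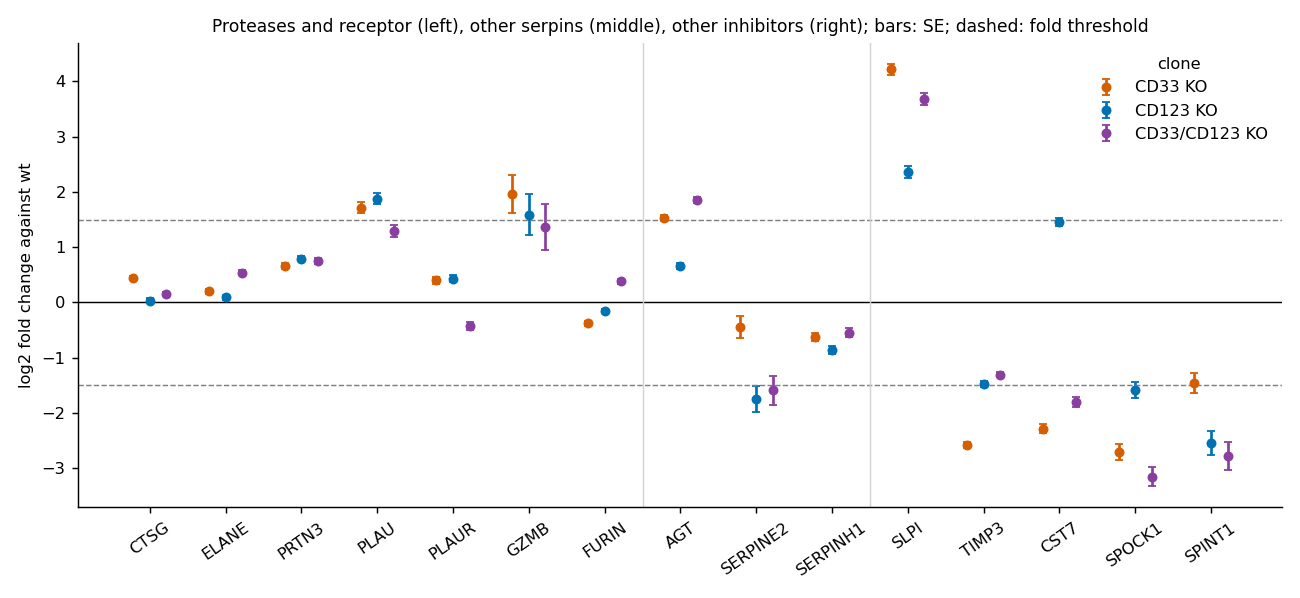
Log2 fold change against wt (y axis) of 6 target proteases and the urokinase receptor (left), 3 other serpins (middle) and 5 other inhibitors (right) in the 3 clones; points are fitted values, bars SE and dashed lines the fold threshold. SLPI lies far above the upper line in every clone, whereas CTSG, ELANE and PRTN3 all stay within 0.79 of wt.

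For each of the 7 whose genotype means spanned at least 1 on the log2 scale, the 3 genes with the most similar profile were found by the root mean square difference of centred log2 CPM over the 12 libraries. SERPINB6 spanned 0.81 and was not ranked. Profiles closest to SERPINB1 were those of OAF (0.05), UAP1 (0.066) and MAPK14 (0.066), and SERPINB6 came at place 302 with 0.192. For SERPINB9 they were ANKLE1 (0.118), ARAP3 (0.126) and NFKBIE (0.13), and for SERPINA1 they were CD82 (0.097), CXCL8 (0.169) and TRIB1 (0.194). SERPINB10 was matched by COL8A2 (0.119), FCHO2 (0.164) and SLC27A2 (0.164), with its neighbour SERPINB8 at place 36 (0.337). SERPINB8 was matched by IGFBP4 (0.115), NEDD4 (0.133) and TMEM243 (0.136), with SERPINB10 only at place 618. The distance is not scaled to a gene's span. SERPINB2, with the widest span (3.85), had the most distant matches: ANK2 (0.339), CC2D2A (0.385) and ADAMTS9 (0.413), which went from 4.42 CPM in wt to 47.8 in CD33 KO. Apart from MAPK14 and NFKBIE, which are on chromosome 6 with SERPINB1 and SERPINB9, these genes lie on other chromosomes than the serpin they resemble. The 12 libraries hold only 4 genotypes, so these likenesses describe 4 levels.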

How the data were processed

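Poly(A)-selected RNA of 12 OCI-AML3 libraries in 4 genotypes (n = 3) was prepared with a directional kit, per the labels' protocols. The authors deposited raw counts per gene; reads were aligned to hg19 with HISAT2 and counted with featureCounts, per the submitters' processing notes. The counter's strandedness and its handling of multimapped reads, like all versions, were not given in the sources used here; hence overlapping antisense genes and near-identical copies stay uncertain.

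All 12 libraries entered a single fit without covariates in edgeR 4.0.16 (R 4.3.3; filterByExpr, TMM, robust quasi-likelihood F-test). P-values were adjusted by Benjamini-Hochberg over 14010 genes, and SEs come from the F statistic. With 8 residual degrees of freedom, the common coefficient of variation was 5.41%. CPM are counts on TMM-scaled library sizes, and CPM per kb use the table's gene lengths. For likeness, log2 CPM had a prior count of 2. The procedure was run on simulated counts with the same spread for every gene and with genes changed in CD33 KO alone. That setting is simpler than the data, so it does not test how uneven spread between libraries was handled. The serpin genes and all lists were chosen with earlier results of these data known. Listed genes named are, per clone, up to 4 called ones with the smallest adjusted p, plus CTSG, ELANE, PRTN3, GZMB, PLAU, FURIN and PLAUR; called neighbours within 1 Mb; and the 3 most alike genes. A gene that this rule names is not reported here. Settings varied 1 at a time were the scaling (RLE, upper quartile, library size), the low-count filter (none; at least 1 CPM in 3 libraries), the tool (limma-voom with limma 3.58.1; DESeq2 1.42.0), the groups fitted, the thresholds and the libraries, each left out in turn.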

Additional observations from a re-analysis of the deposited data

Results flagged for a closer look

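For SERPINB2, SERPINB6 and SERPINA1, groups with and without an edit differed without overlap of libraries in both backgrounds, but in opposite directions. How many of all genes tested do so was not counted, so nothing is read from their number. The difference between the effects was not tested. Adding the CD123 edit went with higher SERPINB2 on the wt background (log2 1.73) and lower SERPINB2 on the CD33 KO background (-1.5). For SERPINB6 the corresponding values were 0.28 and -0.18. For SERPINA1 they were 1.8 and -0.16, and for the CD33 edit they were 0.93 on the wt background and -1.03 on the CD123 KO background. Whether the double knockout was derived from a single knockout clone is not given in the labels used here, so these are differences between 4 cell populations.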

How the results depend on the processing

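No paired analysis was possible because the columns carry no replicate number shared across genotypes. DESeq2, limma-voom, RLE scaling and fits restricted to the groups compared left the number of serpin genes called the same in all 6 comparisons. All log2 differences of the 7 kept their sign under every alternative except SERPINB9 for CD33 KO against CD123 KO, which lies at 0.02 and ranged down to -0.07.

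For CD33/CD123 KO against wt, 2 of the 7 were called with upper-quartile scaling and 2 with library size alone, and 1 to 2 with a library left out. Against CD33 KO, 1 was called with upper-quartile scaling and 1 with no low-count filter, and 0 to 1 with a library left out. With a fold threshold of 1 in log2, the number called was 2 in CD33 KO and 3 in CD33/CD123 KO against wt, 1 for CD33/CD123 KO against CD33 KO, 1 against CD123 KO and 3 between the single knockouts, and it stayed 2 in CD123 KO against wt. With adjusted p alone it was 7 in every comparison but CD33 KO against CD123 KO, where it was 6. Over all genes the threshold of 1 gave 1862 in CD33 KO, 1468 in CD123 KO and 1933 in CD33/CD123 KO against wt, 736 for CD33/CD123 KO against CD33 KO, 1715 against CD123 KO and 1793 between the single knockouts. Adjusted p alone gave 8838, 8339 and 8207 against wt and 3928, 8350 and 9086 for the other 3 comparisons. It gave 7, 5 and 5 other serpins, 18, 14 and 19 target proteases and 12, 14 and 12 other inhibitors in CD33 KO, CD123 KO and CD33/CD123 KO. The threshold of 1 gave 6 other inhibitors in CD123 KO and 7 target proteases in CD33/CD123 KO. With at least 1 CPM in 3 libraries, fewer genes were tested: 1 other serpin was called in CD33 KO and 1 in CD123 KO, and 3 and 2 target proteases. The neighbours' median in CD33 KO was 0.09 with library size alone, against 0.2. CTSG in CD123 KO against wt, at 0.03, was 0 with library size alone and -0.01 to 0.07 with a library left out, the lowest without CD123 KO replicate 2; the cause was not tested. Genes under 1 CPM, such as GZMB and SERPING1, rest on few counts.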
